A study of Mus musculus with 3 samples.

Results

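Gene expression was compared between MIN6 cells transfected with an siRNA against Srsf2 (siSRSF2) and MIN6 cells transfected with a negative control siRNA (siNC). The comparison covered the 11611 genes, of 21899 gene symbols in the deposited table, that had at least 20 reads in either library. MIN6 is an insulin-secreting line derived from a mouse insulinoma, often used to stand in for the beta cell. RNA was sequenced from 1 library each of siSRSF2, siSRSF1 and siNC cells, where siSRSF1 cells had received an siRNA against the related factor Srsf1. The labels name the second target by its older name SC35 as well, and they give no dose or time after transfection. With 1 library a group there is no replicate check, no test between conditions was possible, and every interval is a 95% counting interval of these libraries alone.

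SRSF2 is an SR protein, a nuclear RNA-binding protein that recognises short sequences in exons and helps the splicing machinery to use nearby splice sites. SR proteins also shape the level of many transcripts, because a change in splicing can create an mRNA that nonsense-mediated decay removes, and SRSF2 limits its own mRNA in this way. SRSF2 has further been tied to the release of paused RNA polymerase II at promoters. A pancreatic beta cell depends on high output of insulin through the endoplasmic reticulum, so the genes of protein folding and of the stress pathways that watch over it are treated here in detail.

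Srsf2, on chromosome 11, had 487 reads in siSRSF2 and 1193 in siNC, which is 32.5 CPM (scaled counts relative to the library total) in siSRSF2, 90.9 CPM in siSRSF1 and 94.9 CPM in siNC. The ratio of siSRSF2 over siNC was 0.343 (interval 0.308 to 0.381), so the library labelled siSRSF2 was low in its target and both other libraries were close to each other. Srsf1 had a ratio of siSRSF2 over siNC of 0.847 (interval 0.811 to 0.884). In the siSRSF1 library Srsf1 had 3171 reads against 4070 in siNC, a ratio of siSRSF1 over siNC of 0.683. The siSRSF1 library was thus less low in its own target than siSRSF2 was. Among the 16 compared SR factors, Srsf2 was the one called lower, and the median log2 ratio of that family was −0.29.

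The libraries held 14682576 reads in siSRSF2, 14478045 in siSRSF1 and 12688334 in siNC. At least 1 read was found for 14238 genes in siSRSF2, 15444 in siSRSF1 and 14584 in siNC. Beta-cell markers were present, with a summed level of 53034 CPM in siSRSF2 and 48398 CPM in siNC. All 8 of the listed genes had 20 reads or more in either siSRSF2 or siNC. Slc2a2 reached this in siNC only, with 42 reads there and 7 in siSRSF2. The 7 acinar genes had 0 reads in siSRSF2 and 4 in siNC, and Cpa1, Prss2, Amy2a5, Ctrb1 and Ptf1a were at 0 in both. The 7 fibroblast genes had 6 reads in siSRSF2 and 12 in siNC, the 6 endothelial genes 104 in siSRSF2 and 106 in siNC, and the 7 immune genes 58 in siSRSF2 and 56 in siNC, with Ptprc at 0 in both. Of the duct list, 2 of 7 genes reached 20 reads, with a sum of 212 CPM in siSRSF2 and 225 CPM in siNC, most of it from Spp1 with 2840 reads in siSRSF2 and 2529 in siNC. The alpha-cell list summed to 2116 CPM in siSRSF2 and 2626 CPM in siNC. Most of that came from Ttr, with 29643 reads in siSRSF2 and 31510 in siNC, and Gcg, the glucagon gene, had 2029 reads in siSRSF2 and 1494 in siNC, while Irx1 was at 0 in both. The delta and PP list summed to 14.8 CPM in siSRSF2 and 22.6 CPM in siNC. The part of these levels in the results was not tested.

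A gene was called when its ratio of siSRSF2 over siNC was at least 2-fold and its counting interval excluded 1. By this rule 291 genes (2.51% of those compared) were higher and 121 (1.04%) were lower in siSRSF2, or 412 (3.55%) in all. Small differences were far more common than large ones. The median log2 ratio over all compared genes was 0.02, the quartiles were −0.19 and 0.25, and 87.3% of genes lay within 1.5-fold of equality. Even so, the intervals of 6216 genes (53.5%) excluded 1, of which 3265 were above it and 2951 below. The SD of log2 ratios across genes was 0.44, whereas counting error alone gives 0.17, which leaves 0.41 beyond counting. For siSRSF1 over siNC, which uses the same siNC library and the genes that siSRSF2 and siNC selected, the value beyond counting was 0.38. How much of either comes from differences between cultures, which a single library cannot show, was not tested.

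**Figure D1:**
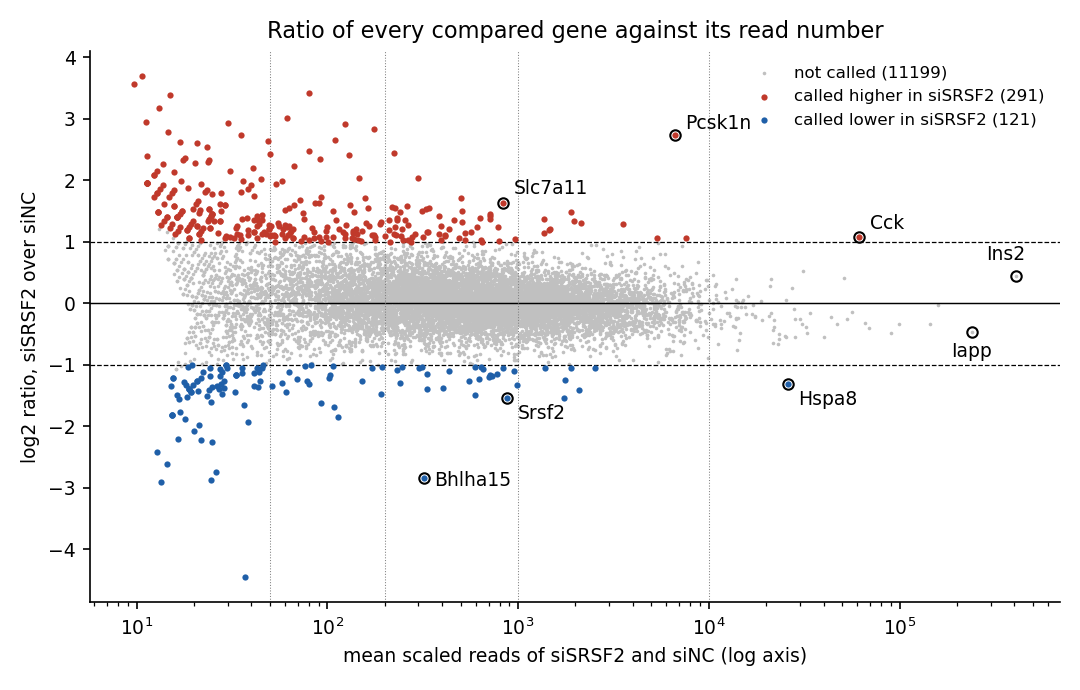
Log2 ratio of siSRSF2 over siNC for each of the 11611 compared genes (vertical axis) against the mean of their scaled reads (horizontal log axis); dashed lines mark 2-fold, dotted lines mark the tier limits, and circles mark 8 named genes. The 291 genes called higher and the 121 called lower crowd at the low end, while Pcsk1n, Cck and Hspa8 stand out among genes with many reads.

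Among compared genes, the size of change differed strongly with the read number. Genes were put in 5 tiers by the mean of their scaled reads in both libraries. The minimum of reads could be met in either library, so genes with a low mean entered through the library where they were high. The siSRSF2 library was the deeper, so this minimum was easier to meet there than in siNC. With no minimum of reads, 384 genes were higher and 239 lower over all tiers. The part of the minimum in the tier shares was not tested. Under 50 reads, 142 of 966 genes (14.7%) were called higher and 71 (7.35%) lower. Between 50 and 200 reads the shares were 4.03% higher and 0.933% lower of 2037 genes, and between 200 and 1000 reads 1.06% higher and 0.462% lower of 5198 genes. Between 1000 and 10000 reads, 11 of 3320 genes (0.331%) were higher and 6 (0.181%) lower. Of the 90 genes with 10000 reads or more, 1 was called in each direction. Many called genes thus lie where counting is coarse, and 162 of the 291 higher genes and 77 of the 121 lower genes had under 100 reads in both libraries.

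How the minimum of reads shaped the spread and the median of the lowest tier was not tested. Among compared genes, the spread beyond counting error fell with read number but did not vanish. It was 0.78 on the log2 scale under 50 reads, 0.45 at 50 to 200, 0.33 at 200 to 1000, 0.30 at 1000 to 10000 and 0.34 at 10000 or more. In the uppermost tier counting error gives only 0.02. The values for siSRSF1 over siNC were 0.70, 0.48, 0.31, 0.27 and 0.27 in the same order. The share of genes whose interval excluded 1 grew with depth, at 29.7% under 50 reads, 37.6%, 52.5% and 70.7% in the tiers between, and 94.4% at 10000 reads or more. The middle of the distribution moved as well, since the median log2 ratio was 0.16 in the lowest tier, 0.10, 0.04 and −0.03 in the next, and −0.22 in the uppermost, where 64 of 90 genes lay below 1 beyond counting error and 21 above it.

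**Figure D2:**
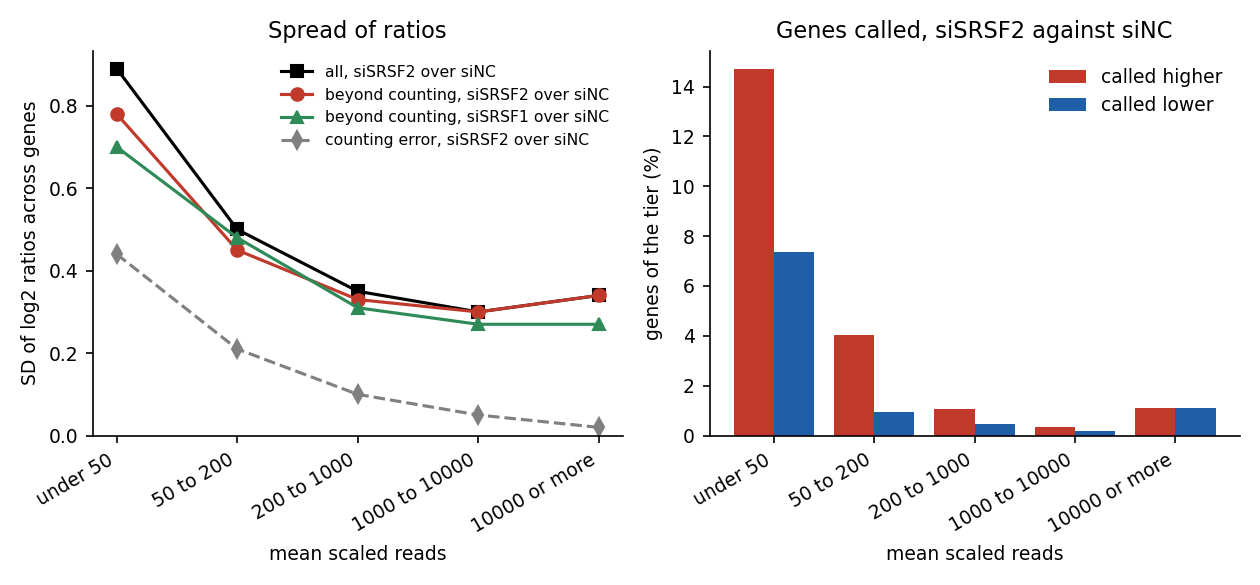
Left, SD of log2 ratios across genes in 5 tiers of mean scaled reads, as observed, as counting error alone gives and as what remains, with siSRSF1 over siNC beside it; right, the percentage of genes in each tier called higher or lower in siSRSF2 against siNC. The part beyond counting error levels off near 0.3, and the share called higher is 14.7% in the lowest tier and 0.331% at 1000 to 10000 reads.

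Most called changes were modest. The median size of the higher calls was 2.53-fold, with 209 genes between 2-fold and 3-fold, 42 between 3-fold and 4-fold, and 40 at 4-fold or more. The median size of the lower calls was 2.42-fold, with 98 between 2-fold and 3-fold, 12 between 3-fold and 4-fold, and 11 at 4-fold or more. A stricter reading, in which the whole interval lies past 2-fold, kept 85 higher and 29 lower genes.

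Among genes under 50 reads the extremes rest on very few reads. Cacng3, an auxiliary subunit of glutamate receptors, had 22 reads in siSRSF2, 1 in siSRSF1 and 1 in siNC, with a ratio of 13.0 and an interval of 2.99 to 762. Adgrf4, an adhesion G protein coupled receptor, had 20 reads in siSRSF2, 4 in siSRSF1 and 1 in siNC. Slc23a1, an ascorbate transporter, had 30 reads in siSRSF2, 5 in siSRSF1 and 2 in siNC. These counts are too small to fix the size of a change. At the other end, Itga7, a laminin-binding integrin chain, had 3 reads in siSRSF2, 14 in siSRSF1 and 22 in siNC, and Uts2b, a urotensin-related peptide gene, had 6 reads in siSRSF2, 16 in siSRSF1 and 40 in siNC. Slc2a2, the glucose transporter GLUT2 of mouse beta cells, had 7 reads in siSRSF2, 114 in siSRSF1 and 42 in siNC, and its ratio of siSRSF2 over siNC was 0.149 (interval 0.053 to 0.314). The lowest ratio of all belonged to Gm10800, a predicted gene that was singled out after its values were seen, with 3 reads in siSRSF2, 245 in siSRSF1 and 65 in siNC. The sources used here do not tell how reads that fit several places in the genome were counted, so its count is uncertain.

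Between 50 and 200 mean reads, the 3 highest ratios belonged to genes that were also above siNC in siSRSF1. Scand1, a SCAN domain gene, had 159 reads in siSRSF2, 171 in siSRSF1 and 12 in siNC, with a ratio of siSRSF2 over siNC of 10.8 (interval 6.19 to 22). C2cd4b had 119 reads in siSRSF2, 109 in siSRSF1 and 12 in siNC, and Nrtn, which encodes the growth factor neurturin, had 237 reads in siSRSF2, 196 in siSRSF1 and 26 in siNC. For these genes siNC was the library that stood apart. The lowest ratios of the tier were those of Myo15b at 0.277, the KDEL receptor gene Kdelr3 at 0.311 and the PDZ protein gene Tax1bp3 at 0.326. Between 200 and 1000 mean reads, Rab5if had 410 reads in siSRSF2, 534 in siSRSF1 and 63 in siNC, while Slc7a11 had 1375 reads in siSRSF2, 414 in siSRSF1 and 371 in siNC. Slc7a11 encodes the cystine and glutamate exchanger, and in its case siSRSF2 was the library that stood apart. Nenf, the gene of the secreted protein neudesin, had a ratio of 3.28 (interval 2.83 to 3.84). The lowest ratio of the tier was that of Bhlha15, a transcription factor of secretory cells also known as Mist1, with 85 reads in siSRSF2, 448 in siSRSF1 and 512 in siNC. It was followed by Srsf2 itself and by Gmppb, which makes the GDP-mannose used for glycosylation, with a ratio of 0.355 (interval 0.311 to 0.403).

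The 19 called genes with a mean of 1000 reads or more, of 3410 compared at that depth, have narrow intervals and were all looked at, including those outside the rule for named genes. The 12 that were higher in siSRSF2 differed in where siSRSF1 lay. Slc1a4, a neutral amino acid transporter, had 206 CPM in siSRSF2, 82.1 CPM in siSRSF1 and 81.1 CPM in siNC. Trib3, a stress-induced pseudokinase, had 220 CPM in siSRSF2, 102 in siSRSF1 and 88.9 in siNC, and Arl14ep had 149 CPM in siSRSF2, 60.3 in siSRSF1 and 64.1 in siNC. In these 3 genes siSRSF2 alone was high. The amino acid transporter gene Slc7a5 had 746 CPM in siSRSF2, 517 CPM in siSRSF1 and 356 CPM in siNC, and the translation repressor gene Eif4ebp1 had 147 CPM in siSRSF2, 96.9 in siSRSF1 and 64.0 in siNC, so that siSRSF1 lay between.

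In the other 7 the siSRSF1 level was much closer to siSRSF2 than to siNC or above both. Pcsk1n encodes proSAAS, a granule protein that inhibits a prohormone convertase, and it had 841 CPM in siSRSF2, 585 CPM in siSRSF1 and 126 CPM in siNC, with a ratio of siSRSF2 over siNC of 6.67 (interval 6.33 to 7.03). Cck, the gene of the peptide hormone cholecystokinin, had 6064 CPM in siSRSF2, 5811 CPM in siSRSF1 and 2882 CPM in siNC. Hnrnpab had 203 CPM in siSRSF2, 306 in siSRSF1 and 72.6 in siNC and Hnrnpa0 had 143 CPM in siSRSF2, 132 in siSRSF1 and 55.3 in siNC, and both encode RNA-binding proteins of the hnRNP type. Insm1, a transcription factor of neuroendocrine cells, had 366 CPM in siSRSF2, 426 CPM in siSRSF1 and 150 CPM in siNC. Nkx6-1, a homeobox factor of beta-cell identity, had 528 CPM in siSRSF2, 478 in siSRSF1 and 252 in siNC, and the MAP kinase phosphatase gene Dusp8 had 137 CPM in siSRSF2, 128 in siSRSF1 and 61.9 in siNC. Hnrnpab and Pcsk1n overlap a gene on the opposite strand, and the sources used here do not give whether the counting used strand. The same holds for Srsf2, Slc23a1, Itga7, Scand1, Myo15b, Kdelr3, Gmppb, Manf, Iapp, Kif20a, Cebpb, Cebpd, Nkx6-2, Nr2f6, Slc6a9 and Fam104a among the other genes named. After correction for GC content, Nkx6-1 had a ratio of 1.89 and Cck a ratio just under 2-fold, and neither was called.

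The 7 that were lower showed another arrangement. Hspa8, the constitutive cytosolic Hsp70 chaperone, had 1082 CPM in siSRSF2, 2669 CPM in siSRSF1 and 2688 CPM in siNC, with a ratio of siSRSF2 over siNC of 0.403 (interval 0.395 to 0.410). Tmx1, a redox protein of the endoplasmic reticulum membrane, had 82.7 CPM in siSRSF2, 208 in siSRSF1 and 220 in siNC. Msmo1, a sterol-synthesis enzyme, had 76.0 CPM in siSRSF2, 200 in siSRSF1 and 181 in siNC, and Dnajb9, a co-chaperone of the endoplasmic reticulum, had 120 CPM in siSRSF2, 241 in siSRSF1 and 249 in siNC. Manf had 88.8 CPM in siSRSF2, 158 in siSRSF1 and 185 in siNC, and Tbl2 had 65.4 CPM in siSRSF2, 111 in siSRSF1 and 135 in siNC. In these 6 genes siSRSF2 was the low library and siSRSF1 lay near siNC. Lars2, the mitochondrial leucyl-tRNA synthetase gene, differed, with 64.6 CPM in siSRSF2, 399 CPM in siSRSF1 and 189 CPM in siNC, and its count is uncertain for the same reason as that of Gm10800. After correction for GC content Dnajb9 had a ratio of 0.502 and was not called, nor was it under library totals without the insulin genes, at 0.501.

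**Figure D3:**
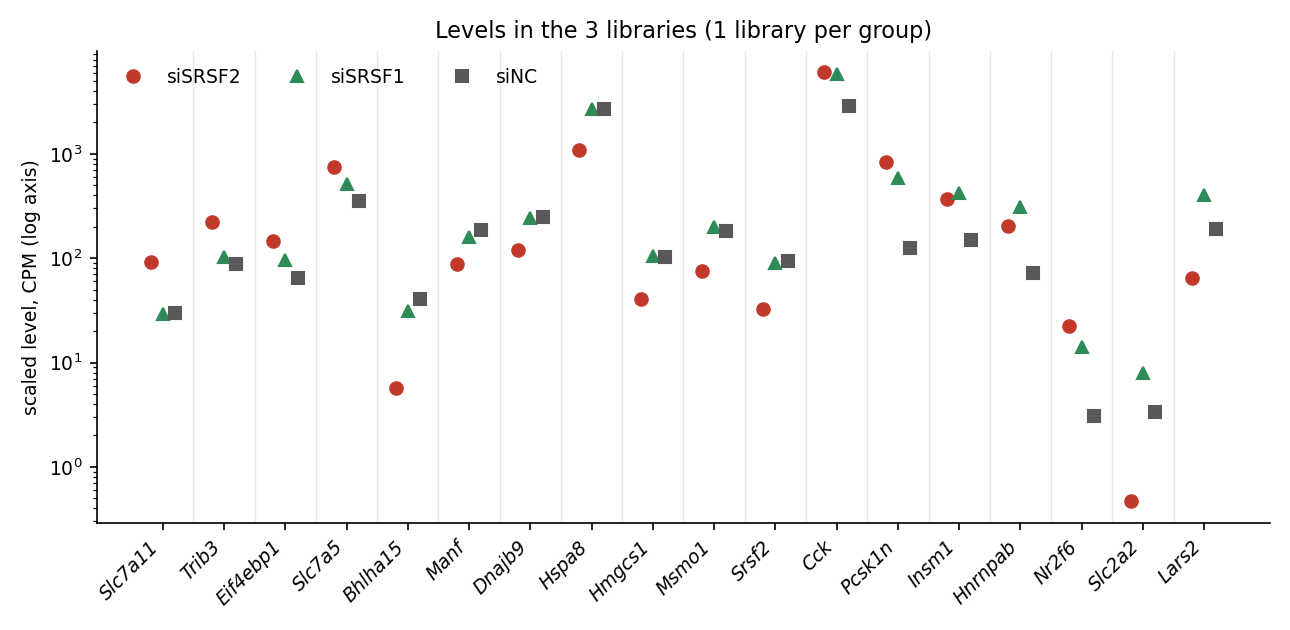
Scaled level in CPM (log axis) of 18 named genes in siSRSF2, siSRSF1 and siNC, with 1 point per library and no error bar since each group has 1 library. Slc7a11, Bhlha15, Hspa8, Hmgcs1, Msmo1 and Srsf2 show siSRSF2 apart from both other libraries, whereas Cck, Pcsk1n, Insm1, Hnrnpab and Nr2f6 show siNC apart from both siRNA libraries against SR factors.

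In terms of total reads, 9.12% of the siSRSF2 library would have to move between genes to give the shares of siNC. The movement was spread over many genes, since it took 352 genes to reach 50% of the gain and 174 genes to reach 50% of the loss. Ins2 gained most, with 33985 CPM in siSRSF2, 25199 CPM in siSRSF1 and 25048 CPM in siNC. Ins1, the second mouse insulin gene, had 2663 CPM in siSRSF2, 2338 in siSRSF1 and 1858 in siNC. Both insulin genes together took 3.74% of reads in siSRSF2 and 2.67% in siNC, which was 11.8% of all the gain. Cpe, the carboxypeptidase that trims prohormones, had 4220 CPM in siSRSF2 and 3180 CPM in siNC, and Abcc8, the sulfonylurea receptor of the potassium channel that couples glucose to secretion, had 1741 CPM in siSRSF2 and 1323 CPM in siNC. The ratios of Cpe and Abcc8 were 1.33 and 1.32.

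The largest losses came from other products of the same cell. Iapp, the gene of amylin, which is released with insulin, had 14550 CPM in siSRSF2, 16532 CPM in siSRSF1 and 20144 CPM in siNC, with a ratio of siSRSF2 over siNC of 0.722. The granule protein gene Chgb had 6385 CPM in siSRSF2 and 8109 CPM in siNC, and Dlk1, a membrane protein of the Notch ligand kind, had 5451 CPM in siSRSF2 and 7636 CPM in siNC. Their siSRSF1 levels, 5266 CPM for Chgb and 4075 CPM for Dlk1, were lower still. The translation elongation factor gene Eef1a1 had 4351 CPM in siSRSF2 and 5736 CPM in siNC. The mitochondrially encoded mt-Co1, a subunit of cytochrome c oxidase, had 9274 CPM in siSRSF2 and 11689 CPM in siNC, and all mitochondrially encoded genes together took 2.22% of reads in siSRSF2, 2.64% in siSRSF1 and 2.76% in siNC. Ribosomal protein genes took 1.59% of reads in siSRSF2 and 1.91% in siNC. Of their 77 compared members 63 lay below 1 beyond counting error, against 2951 of 11611 over all compared genes.

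For gene families, 72 were defined by symbol and 19 lists by pathway or cell function. Of these, 89 had at least 8 compared genes, and 44 had a median above and 45 a median below that of all genes. In 38 of the 91 no member was called. The medians ran between −0.47 and 0.74 on the log2 scale. The 6 lowest and the 6 highest, and those with 3 called members or more, are described here. Since the last were picked for their calls, their counts describe them and are set beside the shares over all compared genes, 2.51% higher and 1.04% lower. Counts of members beyond counting error are to be read beside those of all 11611 compared genes, 2951 below 1 and 3265 above. Such counts grow with depth, with 1346 of 3320 genes below 1 at 1000 to 10000 reads and 64 of 90 at 10000 or more. The Kruppel-like factors, with a rounded median of 0.23 over 17 genes, tied with the histone genes but are not described.

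**Figure D4:**
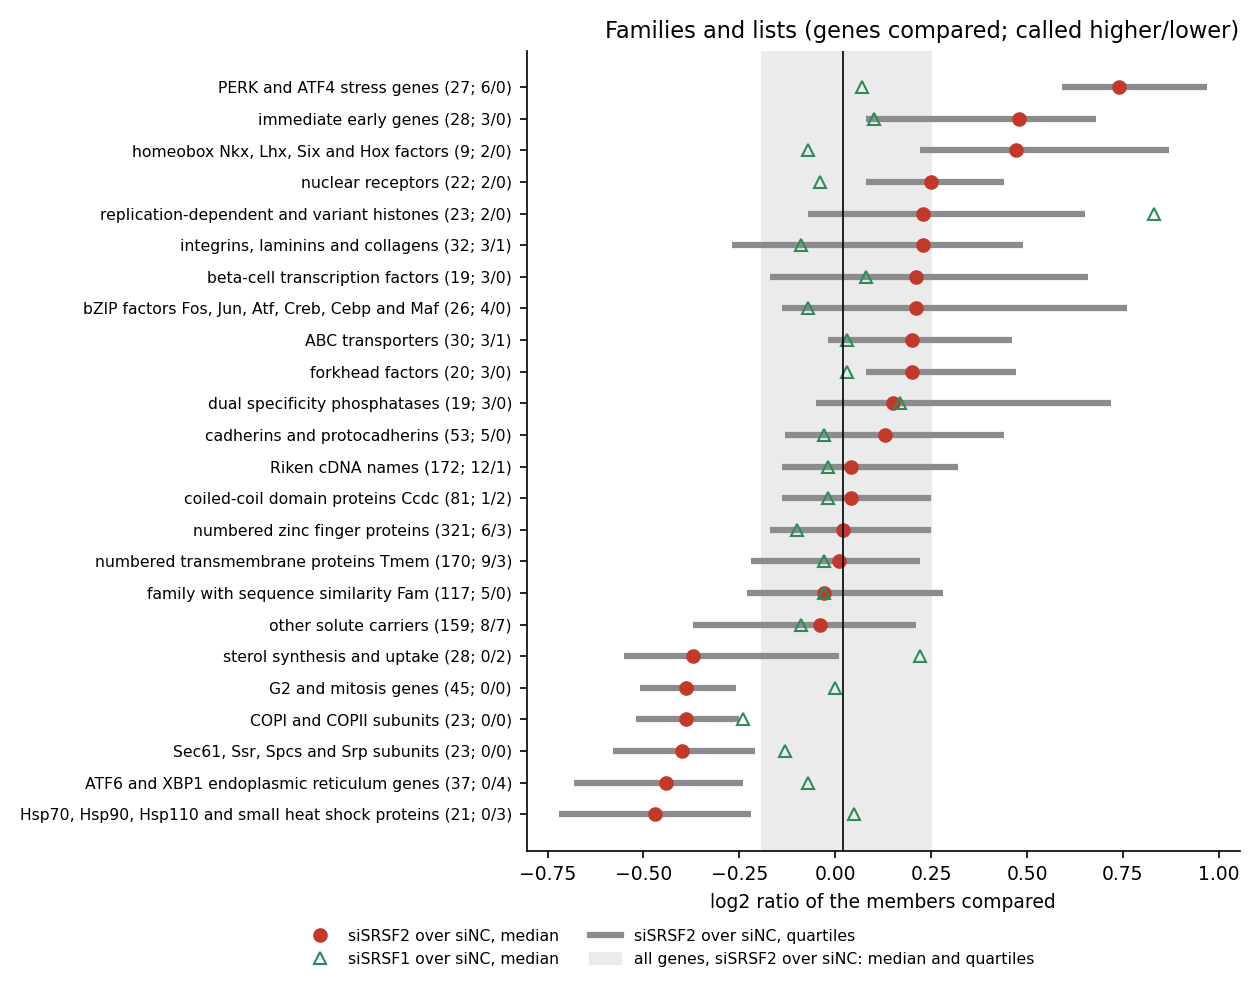
Median (points) and quartiles (bars) of the log2 ratio of siSRSF2 over siNC for 24 families and lists, with the median of siSRSF1 over siNC beside it (triangles); numbers in brackets give genes compared and genes called higher and lower, and the grey band gives the quartiles of all genes. The PERK and ATF4 genes lie highest at 0.74, the heat shock proteins lowest at −0.47, and in both the siSRSF1 median is near 0.

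The heat shock proteins of the Hsp70, Hsp90, Hsp110 and small types, the chaperones that hold and refold proteins, had a median of −0.47. With the minimum of reads used throughout, this was the lowest family. Of its 21 compared genes, 19 lay below 0, 16 of them beyond counting error, and 3 were called lower against a background of 1.04%. Besides Hspa8 these were Hspa1b, an inducible Hsp70 gene, with 6.48 CPM in siSRSF2, 18.9 CPM in siSRSF1 and 15.6 CPM in siNC, and Hspa1l, with 11 reads in siSRSF2, 15 in siSRSF1 and 25 in siNC. Hspa1b has a near-identical neighbour, Hspa1a, so its count is uncertain. Hsph1, the Hsp110 gene, stood just inside 2-fold at 0.502 (interval 0.469 to 0.537). The summed reads of the family gave a ratio of 0.670 (interval 0.665 to 0.675), whereas the family's median for siSRSF1 over siNC was 0.05. With genes of at least 100 reads only, the family's median was −0.34. The tubulins, not otherwise described, had a median of −0.36 over 13 genes with the minimum used throughout. Their median was −0.49 with 100 reads required, and also with no minimum. The rank of the heat shock proteins as lowest thus depended on the minimum of reads.

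Genes that the ATF6 and XBP1 branches of the unfolded protein response control came next, with a median of −0.44 over 37 compared genes. This response adds chaperones, folding enzymes and degradation factors when unfolded proteins collect in the endoplasmic reticulum. Of the 37 genes, 31 lay below 1 beyond counting error and 1 above it. The 4 called lower were Bhlha15, Kdelr3, Manf and Dnajb9, with ratios of 0.140, 0.311, 0.480 and 0.482. Pdia4, a protein disulfide isomerase gene, had 142 CPM in siSRSF2, 239 CPM in siSRSF1 and 250 CPM in siNC, and Sdf2l1, part of a chaperone complex, had 69.7 CPM in siSRSF2, 148 in siSRSF1 and 121 in siNC. The summed reads of the list gave a ratio of 0.75 (interval 0.745 to 0.754), and its median for siSRSF1 over siNC was −0.07.

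The entry and exit of proteins at the same organelle showed smaller but uniform shifts. The translocon and signal peptide group (Sec61, Ssr, Spcs and Srp subunits) had a median of −0.40, and 20 of its 23 genes lay below 1 beyond counting error with none above. Its lowest members were Sec61a1, the channel subunit, with 350 CPM in siSRSF2, 502 CPM in siSRSF1 and 597 CPM in siNC, and Ssr1 with 322 CPM in siSRSF2, 453 in siSRSF1 and 539 in siNC. The coat subunits of COPI and COPII vesicles, which carry cargo between the endoplasmic reticulum and the Golgi, had a median of −0.39, and 21 of 23 genes lay below 1 beyond counting error. Sec24d, a cargo adaptor of COPII, had 120 CPM in siSRSF2, 165 CPM in siSRSF1 and 195 CPM in siNC. No gene of either group was called. Their medians for siSRSF1 over siNC were −0.13 and −0.24, so the coat genes in particular were also below siNC in siSRSF1.

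The list of sterol synthesis and uptake had a median of −0.37 over 28 genes. Hmgcs1, which makes HMG-CoA at the start of the pathway, was called lower with 40.7 CPM in siSRSF2, 104 CPM in siSRSF1 and 103 CPM in siNC, a ratio of 0.397 (interval 0.360 to 0.438). With Msmo1 it made up the 2 called members. The members did not move as one, since 17 lay below 1 and 4 above 1 beyond counting error. The list's median for siSRSF1 over siNC was 0.22.

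Genes of G2 and mitosis had a median of −0.39 over 45 genes, and 40 of them lay below 1 beyond counting error, although none was called. The lowest were Kif20a, a mitotic kinesin, with 44.1 CPM in siSRSF2, 67.7 CPM in siSRSF1 and 73.4 CPM in siNC, and the kinase gene Plk1 with 34.1 CPM in siSRSF2, 59.5 in siSRSF1 and 55.9 in siNC. The range of the list was −0.73 to 0.36 on the log2 scale. Fewer dividing cells and less RNA per dividing cell cannot be told apart in bulk RNA.

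The highest group was the list of genes of the PERK and ATF4 branch, which responds to unfolded protein and to shortage of amino acids. Its median was 0.74 over 27 compared genes of 30, and 25 lay above 1 beyond counting error. Slc7a11 had 91.8 CPM in siSRSF2, 28.9 CPM in siSRSF1 and 29.5 CPM in siNC, a ratio of siSRSF2 over siNC of 3.11 (interval 2.77 to 3.50). Cebpb, a bZIP transcription factor, had 9.88 CPM in siSRSF2, 6.91 in siSRSF1 and 1.75 in siNC, and Atf3, another bZIP factor, had 24.4 CPM in siSRSF2, 17.2 in siSRSF1 and 9.47 in siNC. With Trib3, Eif4ebp1 and Slc7a5 they made up the 6 called members, against a background of 2.51%. Outside the rule for named genes and chosen after their values were seen, Cth and Gpt2, enzymes of cysteine and alanine metabolism, reached 1.98 and 1.93. Atf4 itself had 465 CPM in siSRSF2, 475 CPM in siSRSF1 and 514 CPM in siNC and a ratio of 0.904. The summed reads of the list gave a ratio of 1.55 (interval 1.54 to 1.57), and the list's median for siSRSF1 over siNC was 0.07.

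Both stress lists were also set against the promoters of their genes. The share of a list's promoters with a motif uses no ratio, so it does not bear on the change in siSRSF2. RefSeq promoters (GRCm38.p6, 250 bases before to 50 after the start) were at hand for 9308 of the compared genes (80.2%), and motifs were searched on both strands. The ATF4 and CEBP element TTNCATCA was present in 8 of 24 promoters of the PERK and ATF4 list (33.3%), in 2.72% of promoters of all compared genes and in 3.97% of all 32851 promoters. Of the promoters of genes called higher 6.09% held it, and of those called lower 3.37%. The 253 compared genes with the element had a median log2 ratio of 0.12, with 14 called higher and 3 lower. All 9308 compared genes with a promoter had a median of 0.02, with 230 called higher and 89 lower. The 253 include the 8 genes of the list, so this is not fully separate from the list. The following windows are shown because they hold this element, in capitals, upstream of 3 genes of the list, with Slc7a11 holding it on each strand.
Slc7a11, chr3:50443647-50443704, minus strand: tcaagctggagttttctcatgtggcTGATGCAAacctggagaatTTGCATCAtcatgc
Atf3, chr1:191183411-191183468, minus strand: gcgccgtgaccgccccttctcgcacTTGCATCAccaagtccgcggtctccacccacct
Chac1, chr2:119351024-119351081, plus strand: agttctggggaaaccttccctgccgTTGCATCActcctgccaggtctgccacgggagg
Chac1, a glutathione-degrading enzyme chosen for this match, had 272 CPM in siSRSF2, 146 CPM in siSRSF1 and 171 CPM in siNC.

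The endoplasmic reticulum stress element is a CCAAT box, 9 bases of any kind and CCACG. It was present in 9 of 29 promoters of the ATF6 and XBP1 list (31.0%), in 0.161% of promoters of compared genes and in 0.119% of all promoters. Only 15 compared genes held it, and their median log2 ratio was −0.33, with 12 of them below 0 and none called. Since 9 of the 15 belong to the list, this is no separate observation. The windows below show the element in capitals in a gene that was lower in siSRSF2 and in a gene that was not.
Hspa5, chr2:34772000-34772068, plus strand: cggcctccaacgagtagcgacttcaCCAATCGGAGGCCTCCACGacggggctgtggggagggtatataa
Creld2, chr15:88819495-88819563, plus strand: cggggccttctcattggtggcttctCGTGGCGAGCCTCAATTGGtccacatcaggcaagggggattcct
Hspa5, the main Hsp70 chaperone of the endoplasmic reticulum, had 1486 CPM in siSRSF2, 1970 CPM in siSRSF1 and 2145 CPM in siNC, a ratio of 0.693. Creld2 had 1952 reads in siSRSF2, 1906 in siSRSF1 and 1546 in siNC, a ratio of 1.06.

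In 4 of the other 5 low groups the motif given here was present in a larger share of the group's promoters than over all compared genes. In the translocon and signal peptide group it was not, since neither the endoplasmic reticulum stress element nor the core TGACGTGG was present in any of 18 promoters. These shares of the groups use no ratios either, so they do not bear on the change in siSRSF2. For the 4 motifs that follow, the medians over all compared genes with a motif lay between −0.11 and 0.03. The heat shock element has GAA and TTC alternating 3 times with 2 bases between. It was present in 3 of 16 heat shock protein promoters (18.8%) and in 0.580% of promoters of compared genes. The 3 were those of Hspd1, Hspe1 and Hsph1. The 54 compared genes with the element had a median of −0.06, and none of them was called. The CHR element TTTGAA was present in 26 of 39 promoters of the G2 and mitosis list (66.7%) and in 13.9% of compared genes, whose median was 0.00. The sterol element CACCCCAC was present in 2 of 19 sterol list promoters (10.5%) and in 3.65% of compared genes, whose median was 0.03. The core TGACGTGG was present in 5 of 22 coat subunit promoters (22.7%) and in 1.09% of compared genes, whose median was −0.11. A window with the sterol element and one with the CHR element are given for Hmgcs1 and for Ccnb2, a mitotic cyclin gene whose ratio was 0.693. The Ccnb2 promoter has 2 matches, of which the window shows the more distant from the gene start.
Hmgcs1, chr13:119690190-119690247, plus strand: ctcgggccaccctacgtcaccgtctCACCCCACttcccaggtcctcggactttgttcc
Ccnb2, chr9:70421691-70421746, minus strand: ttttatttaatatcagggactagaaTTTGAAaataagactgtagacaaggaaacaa

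Immediate early genes, which cells switch on within minutes of a stimulus, had a median of 0.48 over 28 genes, and 18 of them lay above 1 beyond counting error. Besides Atf3, the called members were Maff, a small Maf factor, and Ier5. Maff had 79.9 CPM in siSRSF2, 78.2 CPM in siSRSF1 and 33.9 CPM in siNC, and Ier5 had 38.5 CPM in siSRSF2, 30.6 in siSRSF1 and 18.8 in siNC. The median of the list was 0.24 after correction for GC content. The family of Fos, Jun, Atf, Creb, Cebp and Maf factors, to which several of these belong, had a median of 0.21 and 4 called members of 26, all higher (15.4%, against 2.51% over all compared genes). The one not yet named is Cebpd, with 101 reads in siSRSF2, 59 in siSRSF1 and 21 in siNC.

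Transcription factor families of cell identity also had more higher than lower members. The homeobox factors of the Nkx, Lhx and Hox types and their sine oculis relatives had a median of 0.47, but only 9 of 67 genes had enough reads to be compared. Nkx6-2 had 102 reads in siSRSF2, 111 in siSRSF1 and 29 in siNC, a ratio of 2.92 (interval 1.94 to 4.63), and with Nkx6-1 it was called. The median of this family was 0.35 after GC correction and 0.24 with no minimum of reads. Nuclear receptors had a median of 0.25 over 22 genes, 19 of them above 0, and a median of 0.10 with no minimum of reads. Nr2f6, an orphan receptor, had 334 reads in siSRSF2, 202 in siSRSF1 and 39 in siNC, a ratio of 7.12 (interval 5.15 to 10.3), and the bile acid receptor gene Nr1h4 had 93 reads in siSRSF2, 61 in siSRSF1 and 36 in siNC.

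Forkhead factors had a median of 0.20 over 20 genes. Foxa1, an endoderm factor, had 45 reads in siSRSF2, 21 in siSRSF1 and 13 in siNC. Foxd2 had 172 reads in siSRSF2, 102 in siSRSF1 and 51 in siNC, and Foxo6 had 363 reads in siSRSF2, 337 in siSRSF1 and 149 in siNC. Foxo6 lost its call after GC correction, with a ratio of 1.29. Over the 19 compared transcription factors of the beta cell the median was 0.21, with Foxa1, Insm1 and Nkx6-1 called, and its median was 0.10 after GC correction. Within the list 10 genes lay above 1 and 6 below 1 beyond counting error, and Hnf4a, a factor of hepatic and islet genes, had 16.3 CPM in siSRSF2, 24.6 CPM in siSRSF1 and 21.8 CPM in siNC. The numbered zinc finger genes, with 321 compared members, had a median of 0.02, as all genes did, with 6 called higher and 3 lower. Zfp773 had the highest ratio at 5.01 on 44 reads in siSRSF2 and 7 in siNC, and Zfp85 the lowest called at 0.462 on 30 reads in siSRSF2 and 55 in siNC.

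Histone genes had a median of 0.23 over 23 genes, with 2 called, and a median of 0.39 with no minimum of reads. H1f10, a linker histone gene, had 109 reads in siSRSF2, 85 in siSRSF1 and 30 in siNC, and lost its call after GC correction with a ratio of 1.74. H4c9 had 507 reads in siSRSF2, 624 in siSRSF1 and 150 in siNC. The family's median for siSRSF1 over siNC was 0.83. Copies of the histone genes are nearly identical, and the sources used here do not say how reads that fit several copies were counted.

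Among transporters, the solute carriers outside the mitochondrial family had a median of −0.04 and 15 called members of 159 (9.43%, against 3.55% over all compared genes). Of these 8 were higher (5.03%, against 2.51%) and 7 lower (4.40%, against 1.04%). Amino acid carriers were among the higher ones, with Slc7a11, Slc1a4 and Slc7a5 as given above and Slc6a9, a glycine transporter gene, at 2.04 (1.93 and not called after GC correction). Slc1a4 is not on the ATF4 list. Among the lower ones were the sugar transporter genes Slc2a2 and Slc2a4, with Slc2a4 on 9 reads in siSRSF2 and 22 in siNC. Slc17a9, a transporter of nucleotides into vesicles, had 26.9 CPM in siSRSF2, 39.6 CPM in siSRSF1 and 63.6 CPM in siNC. The ABC transporters had a median of 0.20 over 30 genes, which was 0.09 with no minimum of reads. Abcd2, a peroxisomal fatty acid transporter gene of this family, had 19.6 CPM in siSRSF2, 6.28 CPM in siSRSF1 and 7.96 CPM in siNC, a ratio of 2.45 (interval 1.95 to 3.12).

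At the cell surface, integrins, laminins and collagens had a median of 0.23 over 32 genes. Itgb8, an integrin chain that activates TGF-beta, had 353 reads in siSRSF2, 259 in siSRSF1 and 100 in siNC, a ratio of 2.95 (interval 2.37 to 3.74). Itga2 and Col24a1 were called higher as well, at 2.80 and 2.12, and Itga7 lower. Col24a1 stood at 1.99 with a prior of 5 reads and was then not called. The family's median turned to −0.11 when genes under 20 reads were let in, and was 0.11 both with 100 reads required and after GC correction. Cadherins and protocadherins had a median of 0.13 over 53 genes with 5 called higher (9.43%, against 2.51% over all compared genes). Pcdh20 had 119 reads in siSRSF2, 18 in siSRSF1 and 36 in siNC, and Pcdh9 had 186 reads in siSRSF2, 121 in siSRSF1 and 71 in siNC. Pcdhga4 and Pcdha1, at 3.83 and 2.26, belong to gene clusters whose members share exons on the same strand, so their counts are uncertain. Dual specificity phosphatases, some of which switch off MAP kinases, had a median of 0.15 over 19 genes. Of these, Dusp16, Dusp8 and Dusp28 were called, with ratios of 2.62, 2.21 and just over 2-fold. Dusp28 stood at 1.86 after GC correction and was then not called, nor was it with DESeq2 or upper-quartile scaling, a prior of 5 reads or length correction, at 1.97 to 1.99.

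Families named for a sequence feature or a clone rather than a function had medians between −0.03 and 0.04, near that of all genes, while their shares of calls differed. Of 170 Tmem genes 9 were higher (5.29%, against 2.51% over all compared genes) and 3 lower (1.76%, against 1.04%), with Tmem238 at 5.09 on 166 reads in siSRSF2, 186 in siSRSF1 and 27 in siNC, and Tmem50b at 0.464 on 298 reads in siSRSF2, 597 in siSRSF1 and 540 in siNC. Of 81 Ccdc genes 1 was higher (1.23%) and 2 were lower (2.47%). Of 117 Fam genes 5 were higher (4.27%) and none was lower, and Fam104a reached 2.08 on 719 reads in siSRSF2, 520 in siSRSF1 and 290 in siNC. Of 172 genes with Riken names 12 were higher (6.98%) and 1 was lower (0.581%).

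Of the groups tied to the known roles of SRSF2, the SR factors lay lower, with a median of −0.29. Beyond counting error, 10 of the 16 compared SR factors lay below 1 and 4 above. The groups that follow had medians near that of all genes. The hnRNP family had a median of 0.01 over 28 genes, with Hnrnpab and Hnrnpa0 called (7.14% higher, against 2.51% over all compared genes). Nonsense-mediated decay factors had a median of 0.06 over 18 genes with none called, and P-TEFb, 7SK and pausing factors had a median of 0.08 over 22 genes with none called. Splicing itself could not be read from counts per gene.

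Called genes differed from the rest in the build of their transcripts. The median GC content of the longest annotated transcript was 52.8% for genes called higher and 52.0% for genes called lower, against 49.4% for all compared genes. In the uppermost of 10 equal bins of GC content, at 57.8% to 72.8%, 80 of 1160 genes (6.90%) were called higher and 1.29% lower, and the median log2 ratio was 0.20. In the lowest bin 1.29% were called higher and 1.03% lower, and the median was −0.05. Across 11600 genes, which are not independent replicates, Spearman's rho between GC content and the log2 ratio was 0.159, and that between mean reads and the ratio was −0.162. The part of GC content in the results was not tested beyond the correction. Nor was the part of the minimum of reads in the rho with mean reads.

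**Figure D5:**
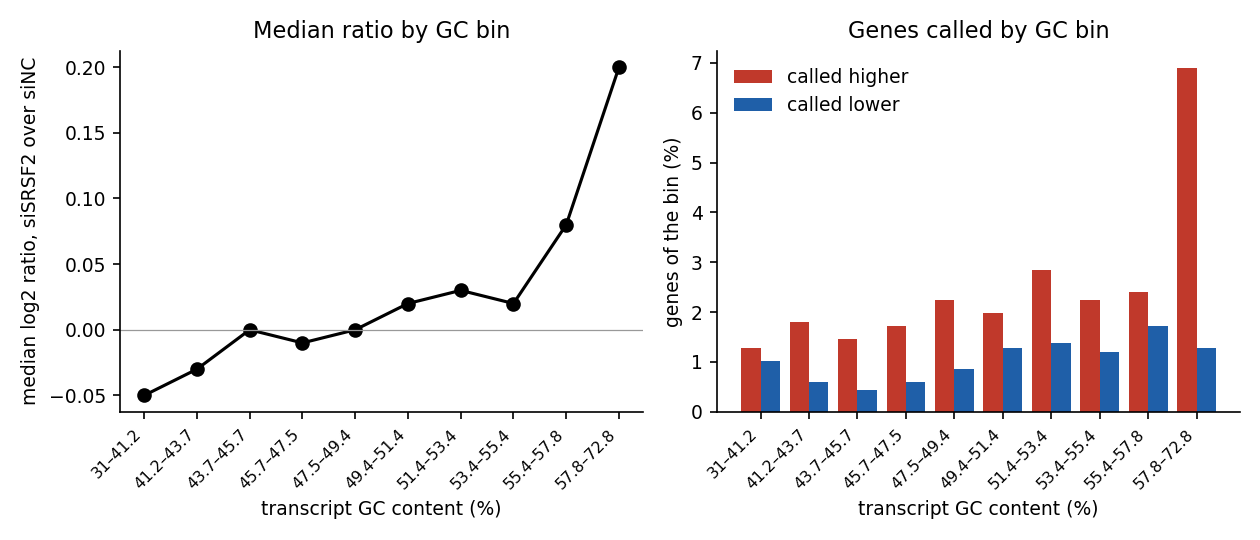
Left, median log2 ratio of siSRSF2 over siNC in 10 equal bins of compared genes by GC content of the longest transcript; right, the percentage of genes in each bin called higher or lower. The last bin stands apart with a median of 0.20 and 6.90% called higher, and the share called lower stays between 0.431% and 1.72%.

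Short genes were called more often in both directions. Of 10 equal bins by length in the table, the shortest, up to 1930 bases, had 5.51% higher and 1.72% lower calls and an SD of log2 ratios of 0.59. The longest had 1.46% higher and 0.517% lower calls and an SD of 0.34. The medians of these bins, 0.05 and 0.02, were close. Genes of 1 exon were called higher in 4.63% of 626 cases and lower in 1.44%, and genes of 20 exons or more in 1.55% and 0.655% of 1679 cases. Read number falls with length at equal expression, so length and counting depth cannot be told apart in these shares. By chromosome the medians lay between −0.06 on X and 0.05, apart from the mitochondrial genome at −0.36. Of its 12 compared genes, mt-Nd3 and mt-Nd4l were called lower, both on few reads, and mt-Co3, at a ratio of 1.02, was the single gene above 1.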

How the data were processed

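RNA of MIN6 cells was extracted with Trizol and made into libraries by a Lifetech protocol, per the labels. The deposited table gives whole-number read counts per gene, with no normalisation, and an FPKM value that the authors computed from them and that equals counts per length and column total within 0.00045%. The submitters' processing notes name Bowtie2 2.4.2 and GRCm38. Not given in the sources used here are the counting tool, its use of strand and its treatment of reads that fit several genes. Of 21935 lines, 67 shared a symbol and were summed.

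Counts were scaled by TMM (edgeR 4.0.16, R 4.3.3; factors 1.0198 for siSRSF2, 0.9899 for siSRSF1 and 0.9906 for siNC). Ratios had a prior of 0.5 reads in proportion to depth, and the 95% intervals were exact (Clopper-Pearson), taken on the fraction of each gene's reads found in siSRSF2. Genes needed 20 reads in either library. Spread beyond counting is the square root of the observed minus the counting variance. GC content and exons came from GENCODE M21, where 98.9% of lines had the same start and end. GC correction used lowess (fraction 0.3, 3 iterations, statsmodels 0.14.6), and the scripts were tested on simulated data. Intervals cover counting error only.

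Named were Srsf2, the 3 highest and 3 lowest called ratios of each tier without predicted, Riken or clone names, the 6 largest gains and losses in CPM, and up to 4 called members, or up to 2 further ones, of each family described; some that meet this rule are left out, and others were added as stated. The members and lists were chosen with earlier results of these data known. Alternatives were other scalings (library totals, DESeq2 1.42.0 size factors, upper quartile), minima of reads, priors, size rules and corrections.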

Additional observations from a re-analysis of the deposited data

Results flagged for a closer look

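In 6 of the genes reported on, the siRNAs against both SR factors were called in opposite directions relative to the shared siNC library, of 7 such genes among all compared, and the difference itself was not tested, since each group has 1 library. The directions below rest on counting error alone. A further gene, 4930590J08Rik, was past 2-fold both ways, at 2.63 in siSRSF2 and 0.262 in siSRSF1, but its interval for siSRSF1 over siNC (0.0227 to 1.10) did not exclude 1, on 26 reads in siSRSF2, 2 in siSRSF1 and 8 in siNC.

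Gm10800, the gene of the lowest ratio, had a ratio to siNC of 0.0454 in siSRSF2 and 3.29 in siSRSF1, on 3 reads in siSRSF2, 245 in siSRSF1 and 65 in siNC, and siSRSF2 over siSRSF1 was 0.0137 (interval 0.0024 to 0.0347). Lars2 had a ratio to siNC of 0.342 in siSRSF2 and 2.11 in siSRSF1, on 968 reads in siSRSF2, 5719 in siSRSF1 and 2374 in siNC, so that siSRSF2 over siSRSF1 was 0.162 (interval 0.151 to 0.173). The counts of Gm10800 and Lars2 are uncertain, because the sources used here do not tell how reads that fit several places were treated. Slc2a2 had a ratio to siNC of 0.149 in siSRSF2 and 2.37 in siSRSF1, on 7 reads in siSRSF2, 114 in siSRSF1 and 42 in siNC, and siSRSF2 over siSRSF1 was 0.0628 (interval 0.0231 to 0.125). 4930562C15Rik had 0.381 in siSRSF2 and 2.78 in siSRSF1, on 16 reads in siSRSF2, 115 in siSRSF1 and 36 in siNC. Pcdh20 went the other way, with 2.75 in siSRSF2 and 0.446 in siSRSF1, on 119 reads in siSRSF2, 18 in siSRSF1 and 36 in siNC, and siSRSF2 over siSRSF1 was 6.19 (interval 3.84 to 11.0). Fam13c also went that way, with 2.38 in siSRSF2 and 0.468 in siSRSF1, on 66 reads in siSRSF2, 12 in siSRSF1 and 23 in siNC. Fam13c overlaps Phyhipl on the opposite strand.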

How the results depend on the processing

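The numbers of called genes depended on the minimum of reads and on the size rule, by their construction. With 100 reads required, 129 genes were higher and 44 lower; with no minimum 384 were higher and 239 lower. A 1.5-fold rule gave 838 higher and 499 lower, a 3-fold rule 82 and 23, and a whole interval past 2-fold 85 and 29. Under the other scalings, priors and corrections the calls numbered 249 to 332 higher and 100 to 132 lower; after GC correction 261 were higher and 132 lower, of which 252 and 118 were also called without it. The Srsf2 ratio stayed between 0.338 and 0.357. The median of integrins, laminins and collagens reversed to −0.108 with no minimum of reads; the cause was not tested. No scaling moved the median of all genes by over 0.1. Of 216 named gene ratios, those called did not reverse, and those not called were not checked for reversal. Among these 216, GC correction ended 10 calls and added 4. No paired analysis was possible because each group has 1 library. Depth limits the genes under 50 reads, where counting error alone gives an SD of 0.44.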
